A study of Mus musculus with 27 samples.

Results

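The livers of mice at day 10 of lactation were compared with the livers of nulliparous mice, which had never been pregnant, by bulk RNA sequencing of whole liver. The comparison takes the 7 libraries whose titles name these stages, 3 lactating (LAC) and 4 nulliparous (NUL), out of 27 libraries in the series. All animals were wild-type BALB/c, an inbred laboratory strain, and no drug, diet or transgene is named for either group. Breeding took place at 10 to 12 weeks of age, litters were adjusted to the same size, and the animals were matched for age. Livers were frozen and ground whole before RNA extraction, so every cell type of the organ contributed. The labels give neither the hour of killing nor the feeding state. They also do not say outright that each library is another animal, so p-values measure only the spread between these samples, which may be technical.

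The liver makes most of the proteins of blood plasma, builds and burns fat, makes cholesterol and bile acids, stores and releases glucose, and clears foreign compounds. During lactation the mammary gland draws glucose, amino acids and lipid from the blood, and food intake of the mother rises. Within the liver lobule, hepatocytes near the central vein (pericentral) and those near the portal tract (periportal) carry different enzymes, and the sinusoids between them hold endothelial cells, Kupffer cells (resident macrophages) and stellate cells, which store vitamin A.

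The total of expected counts per library lay between 60498871 and 70815012 in these 7 libraries. No 2 replicates of a group agreed within counting noise. Levels are given as CPM, the count of a gene relative to its library's total after scaling between libraries. The order is the lactating libraries LAC_200, LAC_213 and LAC_240, then the nulliparous libraries NUL_220, NUL_221, NUL_226 and NUL_227. Where a level is said to rise or fall from one set of values to another, the nulliparous libraries come first. Levels of different genes are compared only in TPM, which allows for gene length. A log2 difference is the level in lactation minus the level in nulliparous liver, with its standard error (SE), and a gene was called at an adjusted p under 0.05 by the quasi-likelihood test of edgeR with Benjamini-Hochberg adjustment over all genes tested. Of 16428 genes tested, 1837 were called, which is 11.2% of genes, with 852 higher in lactation (5.19%) and 985 lower (6.00%). The median absolute log2 difference of the called genes was 0.698, and the median over all genes tested was -0.009. Levels of the 2 groups did not overlap for 1694 of the called genes, and for 3513 of all genes tested. Without LAC_213 the number called was 1140. On log2(TPM + 1), where limma replaced the count model, 36.3% of the calls were higher in lactation, against 46.4% here, and the median over all genes was -0.052.

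These calls were read through 82 gene lists of pathways, secreted proteins and cell types. The lists held 1758 of the genes tested, and 391 of these were called, 198 higher and 193 lower, so 1446 called genes lay outside every list. A list is described by how many members were called in each direction, set beside the shares of all genes given above, and by its median log2 difference.

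**Figure D1:**
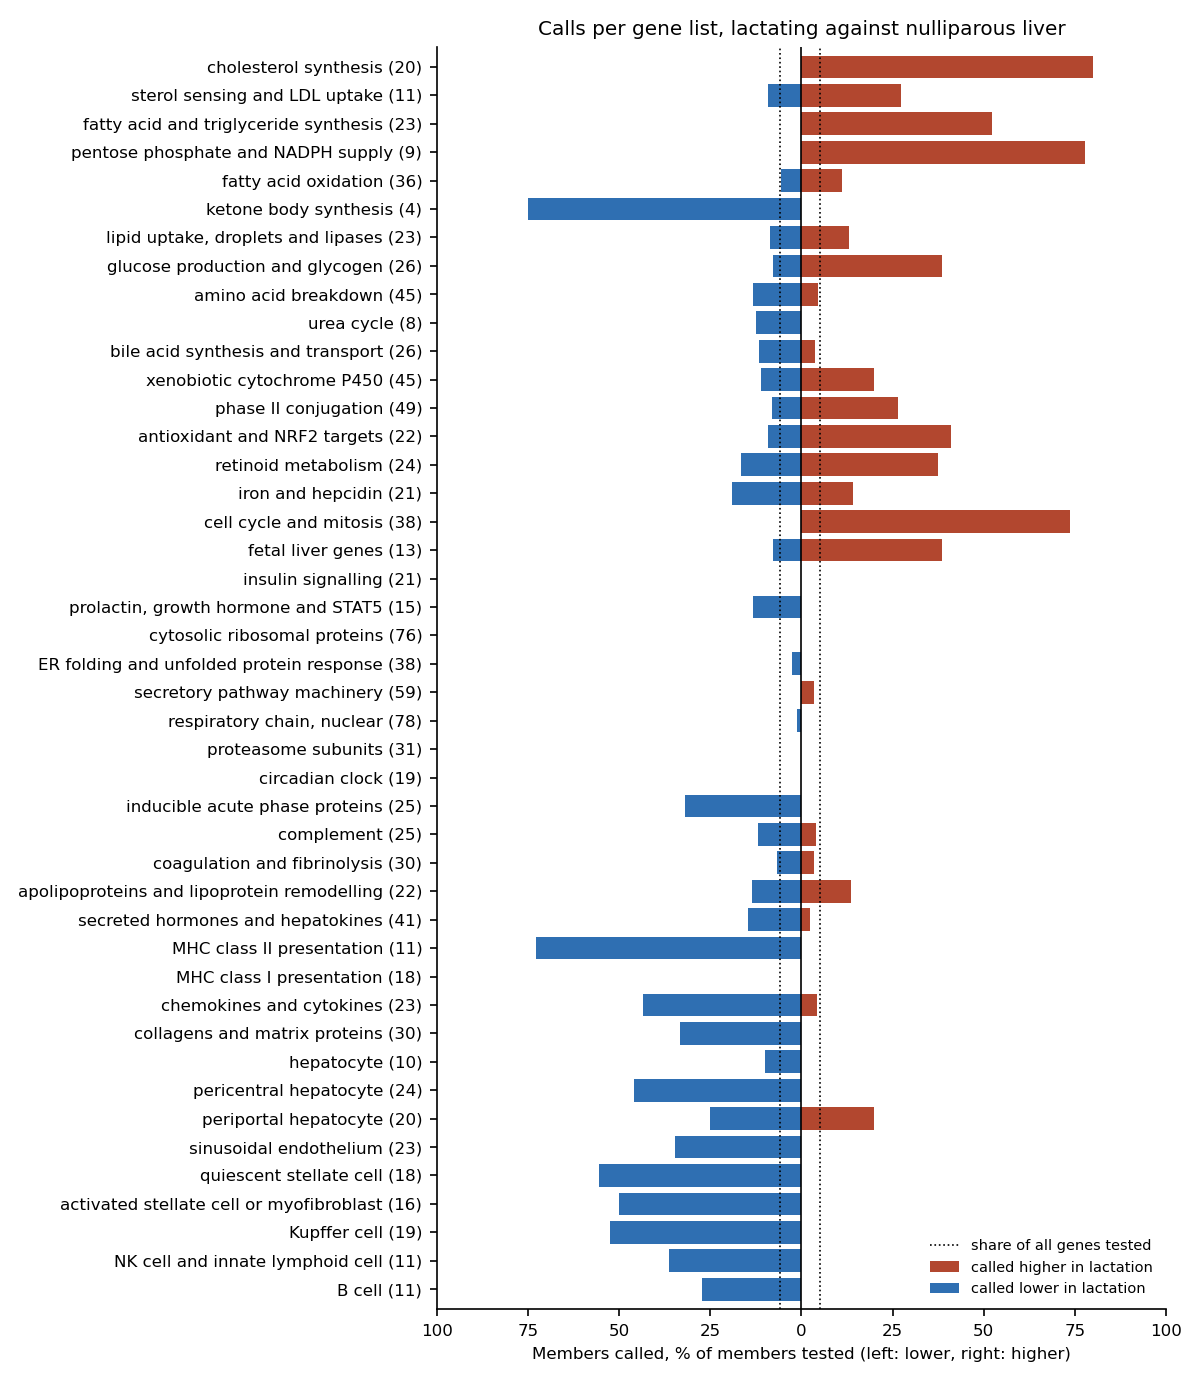
Share of the tested members of a selection of the gene lists that was called higher (right, red) or lower (left, blue) in lactating than in nulliparous liver, by edgeR at an adjusted p under 0.05, with the number of members tested in parentheses. Dotted lines mark the shares over all genes tested, 5.19% higher and 6.00% lower. The cholesterol synthesis, NADPH supply and cell cycle lists extend to the right, and the MHC class II, ketone body, stellate and Kupffer lists to the left.

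Genes of fat and cholesterol synthesis rose together. Of the 20 enzymes from acetyl-CoA to cholesterol, 16 were called higher and none lower, and all 20 had a positive log2 difference, with a median of 0.88. Of 23 genes of fatty acid and triglyceride synthesis, 12 rose and none fell (median 1.13), and of 9 genes that supply NADPH, the reducing agent for both pathways, 7 rose and none fell (median 0.90). These counts moved by less than 1.5 times when any 1 of the 7 libraries was left out.

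Promoters of the cholesterol pathway are known for the sterol response element, to which SREBP factors bind. Its core, TCACCCCA, was looked for on both strands in the 300 bases around the annotated starts in RefSeq promoters (GRCm38.p6, 250 bases before to 50 after). Of 18 promoters found for 15 of the 20 cholesterol genes, 1 held the core, against 1.56% of all 32851 promoters. The match lies 137 bases before the start of Hmgcs1, which encodes the cytosolic HMG-CoA synthase. This promoter, the only one with the core, runs 5′ to 3′ on the + strand at chr13:119690101-119690400, with the core in capitals.
Hmgcs1 promoter: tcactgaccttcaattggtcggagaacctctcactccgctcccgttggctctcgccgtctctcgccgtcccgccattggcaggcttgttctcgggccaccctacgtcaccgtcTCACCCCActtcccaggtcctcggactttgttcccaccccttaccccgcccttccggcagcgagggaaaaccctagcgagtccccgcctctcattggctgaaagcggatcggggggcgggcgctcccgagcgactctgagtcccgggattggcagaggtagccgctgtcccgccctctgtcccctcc
The pentamer CCAAT, the letters read by the factor NF-Y, stood in 14 of the same 18 promoters (77.8%) against 37.4% of all promoters. These are matches of letters, not measured binding.

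Hmgcs1 itself was at 582, 437 and 641 CPM in lactating and 208, 383, 283 and 453 CPM in nulliparous libraries. LAC_213 lay below NUL_227, so the groups overlapped. The log2 difference was 0.74 (SE 0.21, adjusted p = 0.0258 by edgeR), and 4 of the 7 fits that left out 1 library no longer called it, with an adjusted p of up to 0.125 (without LAC_240). Nor was it called in a fit of the 7 libraries alone, with no filter on low counts, or by limma on either TPM scale.

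Other enzymes of the pathway rose too. Sqle (squalene epoxidase) rose by 1.46 on the log2 scale (SE 0.35), Lss (lanosterol synthase) by 1.39 (SE 0.19) and Fdft1 (squalene synthase) by 0.79 (SE 0.14). Lss was at 154, 125 and 159 CPM against 44.1, 60.6, 45.3 and 72.3 CPM, with a wide gap between the groups. Acat2, which makes acetoacetyl-CoA in the cytosol, had the smallest p of the list, at 165, 153 and 169.6 CPM against 76, 82.3, 68.4 and 90.4 CPM (log2 difference 1.03, SE 0.14, adjusted p = 2.55e-05 by edgeR). Reads of Acat2 were shared with other genes in all 7 libraries.

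Some genes of sterol sensing were called as well. Of 11 genes of sterol sensing and LDL uptake, 3 rose and 1 fell, and the 4 calls became 2 without LAC_200 and 2 without LAC_213. Scap, the escort protein of SREBP, was at 212.8, 191 and 219.6 CPM against 162, 143, 162 and 157 CPM, a log2 difference of 0.42 (SE 0.08, adjusted p = 0.00141 by edgeR). Stard4, a cholesterol carrier of the cytosol, rose by 0.58 (SE 0.12). The messages of the SREBP factors did not pass the test, with log2 differences of 0.38 (SE 0.44) for Srebf1 and 0.14 (SE 0.12) for Srebf2.

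Scd1, the main stearoyl-CoA desaturase of liver, which lies at chr19:44394455-44407879 (GRCm38), was the most abundant of the fat synthesis genes that rose. It was at 14149, 13065 and 13199.5 CPM in lactating and 4134, 2723, 2538 and 3146 CPM in nulliparous libraries. The lowest lactating value was more than 3 times the highest nulliparous one. The log2 difference was 2.10 (SE 0.41, adjusted p = 0.00211 by edgeR), and its mean TPM was 3345 (SD 134, n = 3) against 828 (SD 178, n = 4).

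Fasn, the fatty acid synthase, was at 1445, 1191 and 1892 CPM against 389.7, 303, 244 and 471 CPM, with no overlap and a log2 difference of 2.10 (SE 0.52, adjusted p = 0.0120 by edgeR). Acaca, the cytosolic acetyl-CoA carboxylase that feeds it, was at 260.4, 224.2 and 274 CPM against 105, 76, 89 and 102 CPM, a log2 difference of 1.44 (SE 0.34, adjusted p = 0.00797 by edgeR). Slc25a1, the carrier that takes citrate out of mitochondria for this synthesis, rose less, from 168, 168, 155 and 169 CPM to 254, 235 and 238 CPM (0.56, SE 0.10). Scd2, a desaturase found mainly outside the adult liver, rose from 4.66, 5.18, 7.78 and 8.51 CPM to 16.5, 12 and 26.3 CPM (1.48, SE 0.25). Of the NADPH genes, G6pdx, the first enzyme of the pentose phosphate route, was at 41.9, 31.1 and 25.9 CPM against 9.25, 7.39, 5.74 and 7.04 CPM. Its log2 difference was 2.16 (SE 0.39, adjusted p = 0.00105 by edgeR), while Tkt (transketolase) rose by 0.95 (SE 0.14) and Rpia (ribose 5-phosphate isomerase) by 1.05 (SE 0.22).

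Entry of glucose into this route rose as well. Of 26 genes of glucose production and glycogen, 10 rose and 2 fell, and the 12 calls became 6 without LAC_213. Pklr, the liver pyruvate kinase, was at 585, 578 and 571 CPM against 265, 209.1, 202.9 and 227.2 CPM, with very little spread among lactating livers (log2 difference 1.36, SE 0.28, adjusted p = 0.00281 by edgeR).

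Pck1, the key enzyme of glucose synthesis, went the other way. It was at 682, 369 and 876 CPM in lactating and 1245, 1277, 2278 and 1772 CPM in nulliparous libraries, a log2 difference of -1.36 (SE 0.42, adjusted p = 0.0427 by edgeR). No lactating library reached the lowest nulliparous one, yet 4 of the 7 fits without 1 library did not call Pck1, with an adjusted p of up to 0.199 (without LAC_213). It was also not called with the number of sequencing runs as a covariate, which was 1 for LAC_200 and NUL_220 and 2 for the other 5 of these libraries, in a fit of the 7 libraries alone, or with no filter on low counts. G6pc, the catalytic subunit of glucose 6-phosphatase, overlapped between the groups and was not called (-0.65, SE 0.44, adjusted p = 0.404 by edgeR). Genes of insulin signalling had no call among 21 by edgeR, 4 at an unadjusted p under 0.05 and none by DESeq2, and their log2 differences ran from -0.196 to 0.241.

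**Figure D2:**
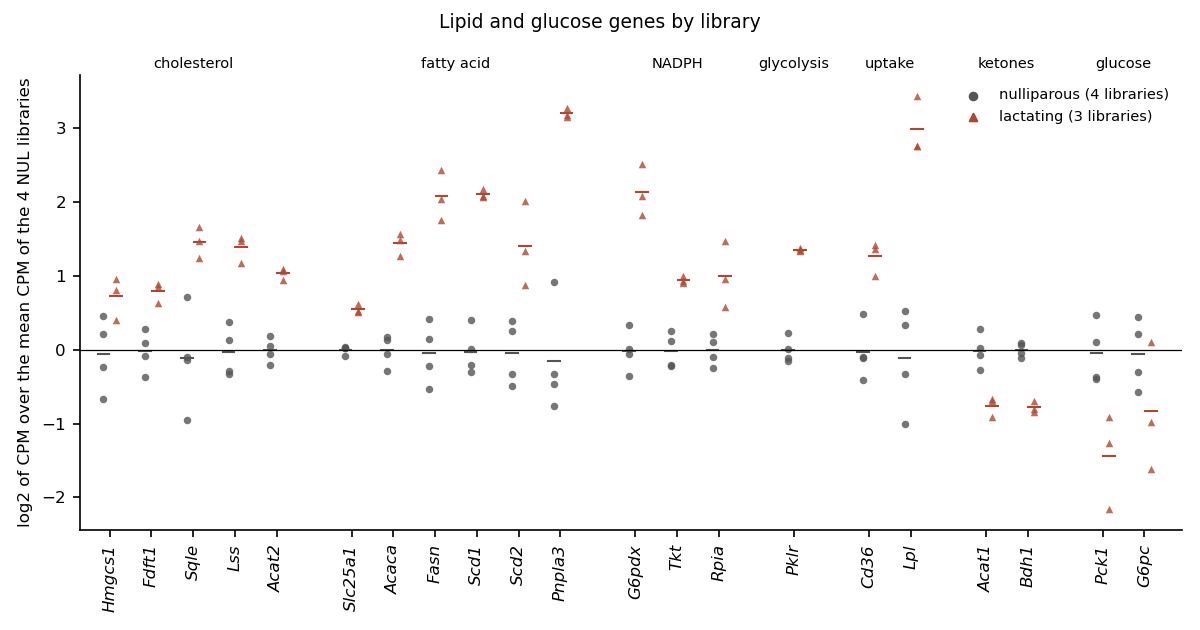
Level of each gene in each library, as log2 of its CPM over the mean CPM of the 4 nulliparous libraries (grey circles, nulliparous; red triangles, lactating; short bars, group means of the plotted values). Lactating libraries lie above the nulliparous ones for the fatty acid, NADPH, glycolysis and uptake genes, and below them for the ketone body genes and Pck1, while Hmgcs1 and G6pc overlap.

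Uptake of fat from the blood also carried some of the clearest differences. Lpl, lipoprotein lipase, which adult liver holds at a low level, was at 102, 102 and 163 CPM against 12, 7.54, 19.1 and 21.8 CPM (log2 difference 3.02, SE 0.31). Cd36, a fatty acid translocase, rose from 48.9, 32.5, 32.3 and 26.2 CPM to 69.7, 90 and 93.7 CPM (1.27, SE 0.20), and Abhd5, the co-activator of adipose triglyceride lipase, rose by 0.85 (SE 0.13). In the list of 23 genes of lipid uptake, droplets and lipases, 3 rose and 2 fell, with a median of 0.06. The 5 calls became 3 without LAC_200 and 3 without LAC_240, since Mgll and Fabp2 each dropped out in 5 of the 7 fits without 1 library. Fabp5, a fatty acid binding protein most often found in skin and fat, was at 411, 341 and 257 CPM against 49.2, 57, 76.5 and 74.4 CPM (2.39, SE 0.40). Reads of Fabp5 were shared with near copies in every library, so its counts depend on how the reads were divided. Plin2, which coats lipid droplets, was at 299.6, 304 and 245 CPM against 352, 625, 352 and 436 CPM and was not called (-0.64, SE 0.25, adjusted p = 0.0999 by edgeR). The adipose hormone Adipoq reached at most 0.103 CPM in lactating and 0.289 CPM in nulliparous libraries, and the 8 adipose markers, none of them called, summed to 13.2 to 17.2 TPM against 10.3 to 15.3 TPM. Their part in these results was not tested.

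Burning of fat showed a mixed pattern, and ketone body genes fell. Of 36 genes of fatty acid oxidation, 4 rose and 2 fell (median 0.03), and the 6 calls became 3 without LAC_213. The genes that rose with the largest sizes were Eci3, a peroxisomal enoyl-CoA isomerase (2.68, SE 0.36), and Cyp4a10, a fatty acid omega-hydroxylase (2.48, SE 0.62), both with reads shared among near copies. Cpt1a, which lets long fatty acids into mitochondria, fell from 244, 317, 282 and 297 CPM to 157, 168 and 202 CPM (-0.70, SE 0.19, adjusted p = 0.0198 by edgeR), and 3 of the 7 fits without 1 library did not call it, with an adjusted p of 0.094 without LAC_200. Of 4 genes of ketone body synthesis, 3 fell. Bdh1, which makes 3-hydroxybutyrate, was at 201.04, 182 and 187 CPM against 302, 314, 345 and 340.4 CPM, so the groups stood well apart (-0.78, SE 0.10, adjusted p = 1.68e-05 by edgeR). Acat1, the mitochondrial thiolase, fell by 0.75 on the log2 scale (SE 0.13). Ppara, the receptor that drives these genes in fasting, was not called (-0.40, SE 0.19, adjusted p = 0.196 by edgeR).

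Of 45 genes of amino acid breakdown 2 rose and 6 fell (median -0.05), and the 8 calls became 4 without LAC_240. Oat, ornithine aminotransferase, was at 231, 225 and 189 CPM against 498, 458, 333 and 546 CPM (-1.09, SE 0.16). Agxt, which detoxifies glyoxylate, fell by 0.72 on the log2 scale (SE 0.12), and Amdhd1, of histidine breakdown, by 0.50 (SE 0.08). Acmsd, of the tryptophan route, rose by 1.14 (SE 0.24), and Gpt2, alanine aminotransferase, by 0.83 (SE 0.21), not called without LAC_240 (adjusted p = 0.0518 by edgeR). Of 8 genes of the urea cycle only the ornithine carrier Slc25a15 was called (-0.43, SE 0.12), and not without LAC_240 (adjusted p = 0.0842 by edgeR), while Cps1, the first enzyme of the cycle, overlapped (0.14, SE 0.16, adjusted p = 0.660 by edgeR).

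Methionine and one-carbon genes had 3 calls of 22, all higher, against 0 without LAC_200, 0 without LAC_213, 1 without LAC_240, 1 without NUL_226, 5 without NUL_227, 5 by DESeq2, and 0 and 1 by limma on log2(TPM + 1) and log2(TPM + 0.1). Among them Gnmt, the glycine methyltransferase, was at 1989, 1979 and 1890.3 CPM against 1657, 1350.3, 1005 and 1345 CPM (0.54, SE 0.16). Ddit4, a stress-induced brake on mTORC1 that also answers to glucocorticoids, was at 23.1, 19.9 and 19.9 CPM against 8.46, 11.3, 7.67 and 9.92 CPM (1.17, SE 0.18). Of 13 glucocorticoid targets, however, 1 was called higher and 3 lower (median -0.25). Those 4 calls became 1 without LAC_200, 1 without LAC_213 and 1 in a fit of the 7 libraries alone.

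Enzymes of detoxification moved in both directions, gene by gene. Among 45 xenobiotic cytochrome P450 genes 9 rose and 5 fell, with a median of 0.04, and the 14 calls became 7 without LAC_213. Among 49 genes of conjugation (phase II) 13 rose and 4 fell, with a median of 0.17. Cyp2e1, an oxidase of ethanol and ketones at chr7:140763739-140774987, was at 1459.7, 1617 and 1408 CPM against 3983, 3079, 4619 and 5054 CPM. Every lactating library lay at about the same level and far under the lowest nulliparous one (log2 difference -1.49, SE 0.20, adjusted p = 2.57e-05 by edgeR).

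The P450 genes that rose included Cyp2a4, a steroid hydroxylase more abundant in female mice, from 545, 426, 621 and 756 CPM to 1506, 1423 and 1412 CPM (adjusted p = 2.17e-05 by edgeR), and Cyp3a11, a broad drug oxidase, from 661, 622, 790.1 and 589 CPM to 1041, 996 and 1235 CPM (0.71, SE 0.19). Without LAC_240 Cyp3a11 was not called (adjusted p = 0.0736 by edgeR), and reads of Cyp2a4 were shared with a near copy. Ugt1a9, a glucuronosyltransferase, had the smallest p of the conjugation list, at 95.7, 100.1 and 132 CPM against 19.6, 19.3, 29.2 and 29.2 CPM (2.17, SE 0.17, adjusted p = 2.94e-08 by edgeR). Since the Ugt1a genes share their last exons, reads were divided among them. Glutathione transferases rose in part, Gstm3 by 1.90 (SE 0.28), Gstm4 by 1.15 (SE 0.14), Gstm1 by 0.77 (SE 0.13) and Gstp1 by 0.81 (SE 0.13), while Gstk1, a glutathione transferase of mitochondria and peroxisomes, fell by 0.56 on the log2 scale (SE 0.11). Ugt3a1 fell from 28, 34.5, 31 and 23.5 CPM to 9.17, 10.9 and 11.1 CPM (-1.49, SE 0.19), and Sult2a8, a hepatic sulfotransferase, fell by 1.45 on the log2 scale (SE 0.24).

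A related set, the targets of the oxidative stress factor NRF2, had 9 of 22 members higher and 2 lower (median 0.23), and the 11 calls became 7 without LAC_213 and 7 without LAC_240. Cbr1, carbonyl reductase, was at 344, 370.4 and 390 CPM against 179, 138, 156 and 167 CPM (1.20, SE 0.12, adjusted p = 2.96e-07 by edgeR). Ephx1 (microsomal epoxide hydrolase) rose by 0.86 (SE 0.13) and Srxn1 (sulfiredoxin) by 0.64 (SE 0.09). Nqo1, often used as a readout of NRF2, overlapped between the groups (0.42, SE 0.17, adjusted p = 0.117 by edgeR). Gpx1, the cytosolic glutathione peroxidase, fell by 0.38 on the log2 scale (SE 0.11), and 5 of the 7 fits without 1 library did not call it, with an adjusted p of up to 0.080 (without LAC_240).

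Of 24 retinoid genes 9 rose and 4 fell (median 0.15), with 8 calls in place of 13 without NUL_226. Rdh16f2, a retinol and steroid dehydrogenase, was at 115, 141 and 97.8 CPM against 38.1, 18.6, 21.9 and 29.8 CPM (2.12, SE 0.23). Rdh11, which reduces retinal, rose by 1.49 (SE 0.23). Rdh9 fell from 169, 93.4, 188 and 223.97 CPM to 61.1, 65.1 and 64.5 CPM (-1.41, SE 0.25). Neither Lrat, which makes the retinyl esters of stellate cells (0.12, SE 0.17), nor Rbp4, the retinol carrier of plasma (-0.02, SE 0.13), was called, with adjusted p-values of 0.749 and 0.953 by edgeR.

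Pericentral hepatocyte markers fell in part. Of 24 pericentral hepatocyte markers 11 fell and none rose (median -0.41), and the 11 calls became 5 without LAC_200. Their summed level ran from 3483 to 3979 TPM in lactating and from 5586 to 8101 TPM in nulliparous libraries, and most of this gap was Cyp2e1, itself one of the markers, with a mean of 1080.4 against 3240.3 TPM. Lect2, a secreted pericentral protein, was at 83.5, 83.8 and 80.7 CPM against 219, 198, 229 and 208 CPM (-1.37, SE 0.13, adjusted p = 2.61e-07 by edgeR), with almost no spread in either group. Lgr5, a Wnt co-receptor of the cells next to the central vein, was at 1.76, 2.1 and 2.27 CPM against 8.01, 5.97, 5.92 and 10 CPM (-1.87, SE 0.40). Glul, glutamine synthetase, the classical marker of the same cells, overlapped between the groups and was not called (-0.24, SE 0.11, adjusted p = 0.190 by edgeR). Periportal markers had 4 of 20 higher and 5 lower (median 0.07), with a summed level of 7391 to 8144 TPM in lactating and 7195 to 8079.8 TPM in nulliparous libraries. The 9 calls became 5 without LAC_200, 4 without LAC_213, 5 without NUL_227 and 5 in a fit of the 7 libraries alone. Cyp2f2, the classical periportal P450, was at 1108, 974 and 1027 CPM against 759, 543, 609 and 689.7 CPM (0.67, SE 0.12), and Etnppl (0.70, SE 0.14) and Aldh1b1 (0.67, SE 0.15) rose with it, while Ctsc fell by 0.63 on the log2 scale (SE 0.12). Of 10 general hepatocyte markers only Cyp2e1, a pericentral gene, was called, and Hnf4a (0.14, SE 0.16), Ttr (-0.07, SE 0.12) and Tat (0.13, SE 0.27) overlapped. The 10 hepatocyte markers summed to 41086 to 43442 TPM in lactating and 45405 to 51796 TPM in nulliparous libraries, so the tissue label was borne out.

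**Figure D3:**
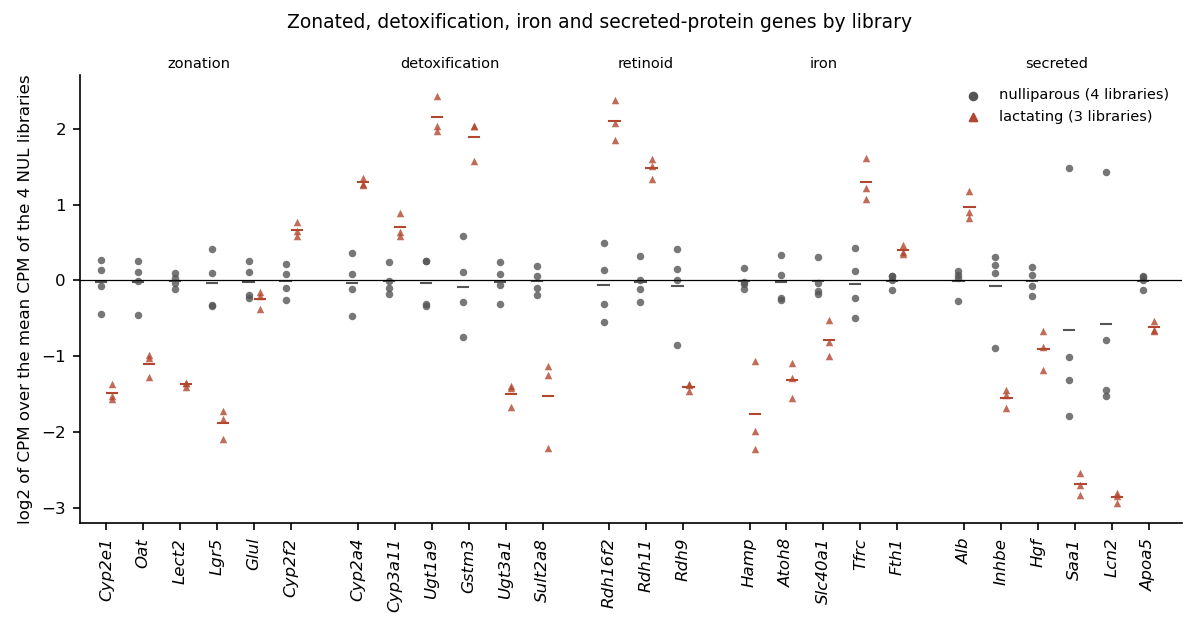
Level of each gene in each library, as log2 of its CPM over the mean CPM of the 4 nulliparous libraries (grey circles, nulliparous; red triangles, lactating; short bars, group means of the plotted values). The groups are well apart for Cyp2e1, Lect2, Ugt1a9, Hamp and Alb, and Glul overlaps. A single nulliparous library, NUL_221, stands high for Saa1 and Lcn2.

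Of 26 genes of bile acid synthesis and transport 1 rose and 3 fell, with 14 at an unadjusted p under 0.05, and the 4 calls became 2 without LAC_200, LAC_213 or NUL_220, 1 without LAC_240 or NUL_227, and 7 by DESeq2. The steadiest was Hsd3b7, of the early ring changes, at 497, 448 and 388 CPM against 698, 696, 629 and 583 CPM (-0.55, SE 0.10, adjusted p = 0.000825 by edgeR). Cyp7a1, the rate-limiting enzyme of bile acid synthesis, was at 174, 206 and 90.8 CPM against 73.2, 60.2, 48.7 and 56.9 CPM. Its groups did not overlap, but the difference of 1.39 (SE 0.58) did not pass the test (adjusted p = 0.142 by edgeR).

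Among secreted proteins the level of albumin rose by far the most in abundance, and the other carriers of plasma that were called rose less. Of the plasma carriers 14.3% were called, against 11.2% of all genes tested. Alb, at chr5:90460897-90476602, was at 168332, 203208 and 159800 CPM against 94544, 74654, 98164 and 91781 CPM, a log2 difference of 0.98 (SE 0.14, adjusted p = 5.48e-05 by edgeR). It took 10.6%, 12.7% and 10.6% of all TPM in lactating and 6.33%, 5.13%, 6.70% and 6.39% in nulliparous libraries. All other secreted proteins of the lists together took 24.2%, 24.5% and 24.6% against 25.0%, 27.6%, 27.3% and 27.2%, lower in every lactating library than in every nulliparous one. Since TPM sum to the same total in each library, a larger share for 1 gene leaves less for the others. Of 21 plasma carriers 3 rose and none fell (5 calls by DESeq2), the other called ones being Pon3, a lactonase carried on HDL (0.49, SE 0.07), and Afm, the vitamin E carrier afamin (0.31, SE 0.10), which 5 of the 7 fits without 1 library did not call, with an adjusted p of up to 0.168 (without LAC_213). Gc, the vitamin D carrier, was at 6328, 7037 and 5983 CPM against 5288, 5345, 5458 and 5678 CPM and was not called (0.24, SE 0.11, adjusted p = 0.164 by edgeR). Complement (1 of 25 higher, 3 lower, median -0.22) and coagulation (1 of 30 higher, 2 lower, median -0.10) had few calls by edgeR. On log2(TPM + 1) limma called 8 complement genes, and the 3 coagulation calls became 1 without LAC_240 and 5 by DESeq2. C3 (0.07, SE 0.14), F2 (0.21, SE 0.12) and Fgb (-0.27, SE 0.18) overlapped.

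Proteins of lipoproteins split. Of 22, 3 rose and 3 fell (median 0.04). Pltp, which moves phospholipid between lipoproteins, was at 79.8, 68.6 and 98 CPM against 20.8, 20.5, 31.3 and 29.7 CPM (1.68, SE 0.22, adjusted p = 3.89e-05 by edgeR). Apoa5, which favours lipolysis of plasma triglyceride, fell from 1396, 1592, 1568 and 1528 CPM to 957, 1052 and 967 CPM (-0.62, SE 0.15). Apob (0.05, SE 0.13) and Apoa1 (0.16, SE 0.19), the main proteins of VLDL and HDL, overlapped between the groups, and Mttp, which loads Apob with lipid, rose by 0.34 (SE 0.08), not called without LAC_213 (adjusted p = 0.0635 by edgeR).

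Inducible acute phase proteins fell where they changed. Of 25, 8 fell and none rose (median -0.63). The 8 calls became 5 without LAC_200, 4 without LAC_213, 5 without LAC_240 and 4 without NUL_221. Steap4, a metalloreductase induced by inflammation, was at 51.2, 54.7 and 57.2 CPM against 87.8, 112, 81.8 and 70.6 CPM (-0.69, SE 0.17). Saa1, serum amyloid A, was at 5.4, 4.85 and 4.4 CPM against 12.7, 88.5, 9.08 and 15.6 CPM, with no overlap. The nulliparous libraries were spread widely, with NUL_221 highest, and the difference did not pass the test (-2.69, SE 0.94, adjusted p = 0.0717 by edgeR). Lcn2 was also highest in NUL_221, and 4 of the 7 fits without 1 library did not call it, with an adjusted p of up to 0.205 (without NUL_221). It was also not called with sequencing runs as a covariate, in a fit of the 7 libraries alone, with no filter on low counts or by limma on log2(TPM + 1). Serpina3n, an inhibitor of serine proteases, was not called (-0.19, SE 0.12, adjusted p = 0.362 by edgeR).

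Iron genes changed along with the hormone of iron. Hamp, which encodes hepcidin and belongs to both lists, lies at chr7:30942368-30944032 and was at 237, 529 and 279 CPM against 1247, 1094, 1071 and 1022 CPM. The highest lactating library, LAC_213, was still far below the lowest nulliparous one (log2 difference -1.67, SE 0.21, adjusted p = 2.12e-05 by edgeR). Atoh8, a BMP-responsive regulator of Hamp, fell from 39.9, 33.1, 26.3 and 26.9 CPM to 10.8, 14.8 and 12.9 CPM (-1.30, SE 0.17), and Bmp2, an endothelial ligand of this pathway, fell by 0.67 on the log2 scale (SE 0.13). Summed markers of sinusoidal endothelium, Bmp2 among them, were also lower, at 277 to 321 TPM against 394 to 419 TPM, and their part in this fall was not tested. Slc40a1, ferroportin, the exporter that hepcidin removes from the cell surface, was at 146, 179 and 129 CPM against 226.98, 233.7, 318 and 251 CPM (-0.77, SE 0.11). Tfrc, the transferrin receptor, rose from 35.2, 29.4, 45.4 and 55.9 CPM to 87.6, 96.3 and 127 CPM (1.32, SE 0.32), and was not called without LAC_240 (adjusted p = 0.0526 by edgeR). The ferritin chains rose by 0.40 (Fth1, SE 0.09) and 0.50 (Ftl1, SE 0.11), the latter with reads shared among copies. In all, 3 of 21 iron genes rose and 4 fell.

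Secreted hormones and hepatokines fell more often than they rose, 6 against 1 of 41, with a median of -0.03. Inhbe, an activin subunit made by hepatocytes, was at 26.8, 25.6 and 22.6 CPM against 39.4, 77.8, 90.5 and 83.9 CPM (-1.54, SE 0.31, adjusted p = 0.00248 by edgeR), with NUL_220 nearest to the lactating ones. Hgf, a growth factor for hepatocytes that comes from stellate and endothelial cells, was at 6.9, 5.98 and 4.81 CPM against 9.5, 10.4, 11.5 and 12.4 CPM (-0.89, SE 0.17). Summed markers of quiescent stellate cells, Hgf among them, and of sinusoidal endothelium were also lower. Their part in the fall of Hgf was not tested. The levels of Fgf21 (-0.64, SE 0.59), Gdf15 (0.63, SE 0.39), Igfbp1 (-0.83, SE 0.85) and Agt (-0.18, SE 0.13) overlapped and none was called. Igfbp2 was higher in each lactating library, at 173, 231.6 and 216.5 CPM against 116, 90.9, 128 and 152 CPM, without passing the test (0.77, SE 0.33, adjusted p = 0.149 by edgeR). Among IGF binding proteins Igfbp3, the main carrier in plasma, fell by 0.85 on the log2 scale (SE 0.23), not called in 2 of the 7 fits (edgeR adjusted p = 0.115 without LAC_213), and Igfbp7 fell by 0.52 (SE 0.10). Clade A serpins, the family of alpha-1-antitrypsin, had 4 of 21 higher and 4 lower. Those 8 calls became 4 without LAC_200, 3 without LAC_213, 4 without NUL_220, 5 without NUL_226 and 4 in a fit of the 7 libraries alone. The abundant Serpina1a (0.53, SE 0.16) and Serpina1b (0.43, SE 0.13) rose, but share reads with near copies, and 3 and 5 of the 7 fits without 1 library did not call them, with adjusted p-values of 0.125 and 0.187 without LAC_213.

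Neither the prolactin receptor nor the oestrogen receptor was called. Prlr, the prolactin receptor, was at 333, 364 and 331 CPM against 362, 301, 397 and 341 CPM, fully overlapping (-0.03, SE 0.10, adjusted p = 0.899 by edgeR). In the list of prolactin, growth hormone and STAT5 genes 2 of 15 were called (1 without LAC_213, and 4 by limma on log2(TPM + 1)), and both were the STAT5 factors themselves. Stat5a was at 12.5, 11.6 and 11.5 CPM against 21.2, 23.8, 17.4 and 19.4 CPM (-0.79, SE 0.14, adjusted p = 0.000419 by edgeR), and Stat5b fell by 0.40 on the log2 scale (SE 0.11), not called in 2 of the 7 fits (edgeR adjusted p = 0.155 without LAC_213). The STAT5 target genes Cish and Socs2 ranged widely within each group, Cish from 8.69 to 37.3 CPM in lactating and 4.32 to 52.9 CPM in nulliparous libraries, and Igf1 was not called (-0.26, SE 0.11, adjusted p = 0.128 by edgeR). Of 36 nuclear and hormone receptors 3 rose and 3 fell, and the 6 calls became 2 without LAC_200, 1 without LAC_213, 2 without NUL_221 and 3 without NUL_226, 2 with an offset for effective length and 1 by limma on either TPM scale. Esr1, the oestrogen receptor, was at 17.8, 20.4 and 24.2 CPM against 18.2, 22.1, 22.6 and 19.5 CPM (0.01, SE 0.16). In thyroid hormone handling, where 1 of 14 rose and 3 fell, the 4 calls became 1 without LAC_213. The call left was Dio1, a deiodinase that activates thyroid hormone, at 7.17, 10.9 and 4.14 CPM against 76.3, 93.4, 62.5 and 57.3 CPM (-3.29, SE 0.42). The receptor Thrb overlapped (0.02, SE 0.12).

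Genes of cell division rose as a body. Of 38 genes of the cell cycle and mitosis, 28 were called higher and none lower, 37 had a positive difference, and the median was 1.53. The counts moved by less than 1.5 times in each fit without 1 library. Their summed level was 0.0178%, 0.0182% and 0.0205% of all TPM in lactating and 0.00997%, 0.00810%, 0.0115% and 0.0112% in nulliparous libraries. Bulk RNA cannot say which cells carried them.

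Promoters of such genes often hold a cell cycle homology region, TTTGAA, beside CCAAT boxes. Searched as above, TTTGAA stood in 17 of 33 promoters (51.5%), which belong to 15 of the 30 genes with a promoter in the table, against 17.9% of all promoters. CCAAT stood in 29 of 33 (87.9%) against 37.4%. The promoters of Cdk1, the kinase that starts mitosis, and Cdc20, which starts the exit from it, are shown with TTTGAA in capitals, both on the - strand, at chr10:69352863-69353162 and chr4:118437294-118437593.
Cdk1 promoter: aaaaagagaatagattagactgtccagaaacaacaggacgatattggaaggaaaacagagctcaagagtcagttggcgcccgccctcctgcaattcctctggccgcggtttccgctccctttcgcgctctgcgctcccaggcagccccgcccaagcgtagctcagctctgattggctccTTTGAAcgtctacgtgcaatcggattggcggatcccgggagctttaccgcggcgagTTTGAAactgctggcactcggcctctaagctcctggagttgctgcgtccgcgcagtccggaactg
Cdc20 promoter: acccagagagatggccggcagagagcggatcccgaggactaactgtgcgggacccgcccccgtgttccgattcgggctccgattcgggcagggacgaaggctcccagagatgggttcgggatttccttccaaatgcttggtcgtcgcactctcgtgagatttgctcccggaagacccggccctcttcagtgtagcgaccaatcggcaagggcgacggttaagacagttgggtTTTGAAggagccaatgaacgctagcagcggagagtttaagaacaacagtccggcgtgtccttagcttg

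Cdk1 was at 5.4, 4.57 and 5.38 CPM against 1.5, 0.686, 1.99 and 1.16 CPM (log2 difference 1.94, SE 0.30, adjusted p = 8.59e-05 by edgeR). Cdc20 was at 16.4, 11.3 and 15.8 CPM against 2.7, 1.07, 4.5 and 2.84 CPM (2.39, SE 0.44). In both, the groups stood clear of each other, and NUL_226 was the highest of its group. Ccna2, cyclin A2, rose by 2.02 (SE 0.32), and Mki67, the proliferation antigen, from 4.62, 2.07, 7.35 and 2.49 CPM to 17.6, 15.2 and 23.8 CPM (2.19, SE 0.51). Ccnd1, cyclin D1, which acts before DNA is copied, was at 105, 185 and 157 CPM against 66.6, 26.8, 59.7 and 83.7 CPM (1.33, SE 0.35, adjusted p = 0.0152 by edgeR), not called without LAC_213 (adjusted p = 0.0827 by edgeR) or in a fit of the 7 libraries alone. Of 18 inhibitors of the cycle 4 rose and none fell, and 2 of the calls were left without LAC_213, 2 without LAC_240, and 2 and 1 by limma on log2(TPM + 1) and log2(TPM + 0.1). Cdkn2c, an inhibitor of CDK4 and CDK6, rose by 0.95 (SE 0.17), and Cdkn1a (p21) overlapped (-0.09, SE 0.31).

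A few genes known from the fetal liver rose too, 5 of 13, with 1 lower, and the 6 calls became 3 in a fit of the 7 libraries alone. Afp, alpha-fetoprotein, was at 5.24, 5.52 and 6.28 CPM against 1.5, 1.77, 1.53 and 2.01 CPM (1.74, SE 0.26, adjusted p = 7.51e-05 by edgeR). Its lactating level was still 6.56 TPM, against 113055 TPM for Alb. Igf2, a fetal growth factor, was at 3.1, 3.47 and 9.8 CPM against 0.474, 0.442, 0.732 and 1.05 CPM (3.02, SE 0.53), and its neighbour H19, a non-coding RNA, at 227.1, 179 and 813 CPM against 58.9, 58.6, 109 and 111 CPM (2.27, SE 0.59). Both were highest in LAC_240, and H19 was not called without it (adjusted p = 0.206 by edgeR) or in a fit of the 7 libraries alone. The heparan sulfate proteoglycan Gpc3 was high in all 3 lactating libraries, with 18.0 TPM against 3.12 TPM on average.

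**Figure D4:**
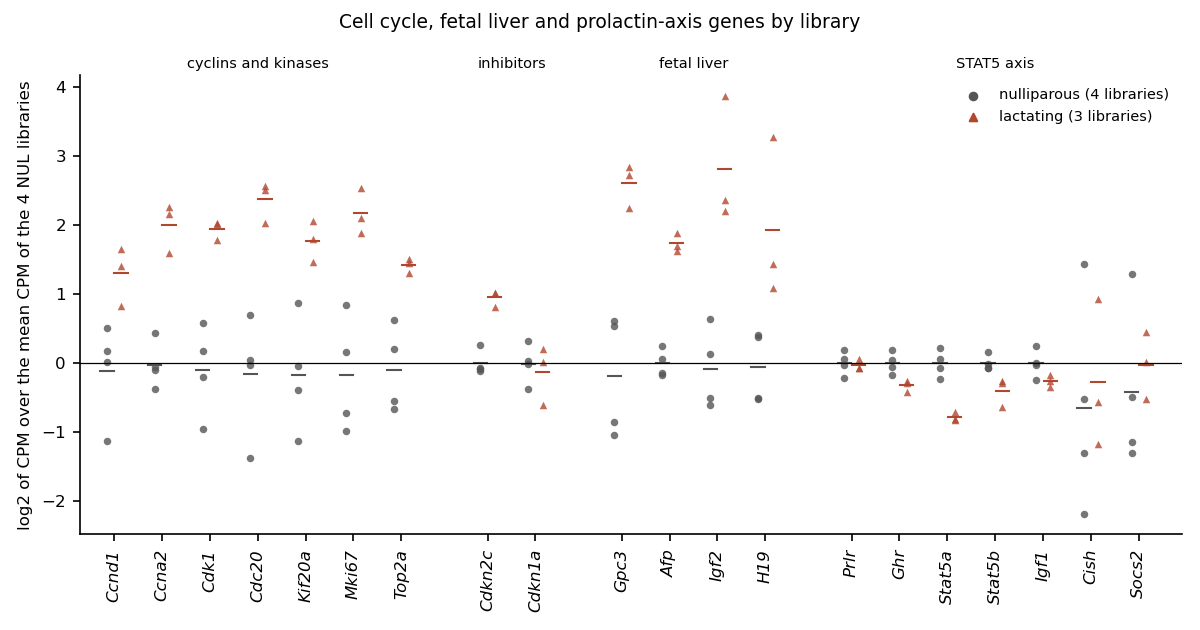
Level of each gene in each library, as log2 of its CPM over the mean CPM of the 4 nulliparous libraries (grey circles, nulliparous; red triangles, lactating; short bars, group means of the plotted values). Cell cycle and fetal liver genes are higher in all lactating libraries, with Igf2 and H19 highest in 1 of them, LAC_240. Of the genes at the right, Stat5a is lower and Prlr, Cish and Socs2 overlap.

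Ribosome, proteasome and secretory lists had few or no calls. None of 76 cytosolic ribosomal proteins, 45 ribosome biogenesis genes or 31 proteasome subunits was called, although their medians were above 0 (0.11, 0.24 and 0.06). At an unadjusted p under 0.05 there were 8, 8 and 0, and DESeq2 called 1, 1 and 0. Ribosome biogenesis had 2 calls without NUL_227. Of 38 genes of folding in the endoplasmic reticulum 1 fell, and of 59 genes of the secretory pathway 2 rose, and neither count held in every fit without 1 library, falling to 0 without LAC_213 or LAC_240 in both lists. Hspa5, the main chaperone there, was at 1508, 1958 and 1508 CPM against 1081, 1035, 1161 and 1812 CPM, with NUL_227 inside the lactating range (0.38, SE 0.29, adjusted p = 0.476 by edgeR). Of 78 nuclear genes of the respiratory chain 1 fell, and none of 19 clock genes was called by edgeR, against 2 at an unadjusted p under 0.05, 1 by DESeq2, 1 without LAC_200 and 2 without NUL_221. Nr1d1, whose level swings through the day, ran from 16.9 to 31.2 CPM in lactating and from 5.46 to 38 CPM in nulliparous libraries, and Arntl, another core gene of the clock, overlapped (-0.07, SE 0.15). Of 20 aminoacyl-tRNA synthetases 5 rose, a count that became 2 without LAC_213, LAC_240 or NUL_221 and 3 without LAC_200 or NUL_226. It was also 2 with an offset for effective length, 1 by limma on either TPM scale, and 3 with no filter on low counts or in a fit of the 7 libraries alone. Of 38 lysosome and autophagy genes 6 rose and none fell, with Hexa, a hexosaminidase, at 70.7, 67.7 and 71 CPM against 45.4, 42.5, 45.6 and 42.7 CPM (0.67, SE 0.08, adjusted p = 1.45e-05 by edgeR).

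Markers of stellate, Kupffer and endothelial cells fell in part, beside the lower hepatocyte and pericentral sums given above. Of 18 quiescent stellate cell markers 10 fell and none rose (median -0.52), of 19 Kupffer cell markers 10 fell and none rose (median -0.53), and of 23 sinusoidal endothelial markers 8 fell and none rose (median -0.29). In bulk RNA, fewer cells of a type and less RNA per cell cannot be told apart, and neither can a gain in hepatocyte RNA that dilutes the rest. Summed levels of these markers ran from 272 to 302 TPM against 377 to 446 TPM for quiescent stellate cells, from 467 to 579 TPM against 776 to 854 TPM for Kupffer cells, and from 277 to 321 TPM against 394 to 419 TPM for sinusoidal endothelium. Without LAC_240 the Kupffer calls became 5. The endothelial calls became 2 without LAC_213, 5 without NUL_220, 3 without NUL_226 and 4 without NUL_227, 3 in a fit of the 7 libraries alone, and 5 with no filter on low counts or with an offset for effective length.

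Reln, a secreted protein of quiescent stellate cells, was at 43.7, 45.2 and 55.5 CPM against 71.5, 57.6, 85.3 and 94.7 CPM (-0.68, SE 0.14), and Dcn, decorin, at 98.6, 106 and 94.2 CPM against 141, 131, 154 and 146 CPM (-0.52, SE 0.11). Among Kupffer genes Vsig4, a complement receptor, was at 22.2, 21 and 17 CPM against 34.1, 28.8, 33.4 and 31.2 CPM (-0.67, SE 0.13, adjusted p = 0.00128 by edgeR), and C1qa fell by 0.57 on the log2 scale (SE 0.11). Of the endothelial genes Fcgr2b, which clears immune complexes, fell by 0.48 (SE 0.10), and Stab2, a scavenger receptor, was not called (-0.38, SE 0.13, adjusted p = 0.0652 by edgeR). Lrat, a stellate marker as well as a retinoid enzyme, was the only stellate member above 0.

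Markers of activated stellate cells or myofibroblasts had 8 of 16 lower and none higher, with a median of -1.05. Their summed level was small, 12.6 to 25.5 TPM against 28.8 to 47.9 TPM. The 8 calls became 4 without LAC_200, 1 without LAC_213, 5 without NUL_226 and 5 without NUL_227, and 3 in a fit of the 7 libraries alone. Col3a1, a fibrillar collagen, was at 13.2, 12.4 and 28.7 CPM against 32.7, 29, 64.2 and 50.9 CPM, with LAC_240 just under the lowest nulliparous value (-1.29, SE 0.28, adjusted p = 0.00498 by edgeR). Col1a1 overlapped and was not called (-1.01, SE 0.37, adjusted p = 0.0876 by edgeR). In the wider list of 30 collagens and matrix proteins 10 fell and none rose (median -0.52). That count was 6 without LAC_213, 18 without LAC_240, 17 without NUL_221, 16 by DESeq2 and 3 in a fit of the 7 libraries alone. Of 26 matrix proteases, inhibitors and crosslinkers 7 fell and none rose, with Mmp2, a gelatinase, at 0.793, 1.79 and 1.32 CPM against 3.1, 2.3, 4.04 and 3.97 CPM (-1.37, SE 0.26). The part of the lower stellate marker levels in these matrix lists was not tested.

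Genes of MHC class II presentation fell. Of 11 genes of MHC class II presentation 8 fell and none rose (median -1.15), and the 8 calls became 5 without LAC_213 and 3 without LAC_240. Class II genes share a promoter element, the Y-box CTGATTGG, which contains ATTGG, the reverse complement of CCAAT. It stood in 4 of 10 promoters, of 9 genes, against 4.10% of all promoters. The promoters of H2-Aa and H2-Eb1, which encode the antigen-presenting chains, are shown with the Y-box in capitals, at chr17:34287774-34288073 on the - strand and chr17:34305617-34305916 on the + strand.
H2-Aa promoter: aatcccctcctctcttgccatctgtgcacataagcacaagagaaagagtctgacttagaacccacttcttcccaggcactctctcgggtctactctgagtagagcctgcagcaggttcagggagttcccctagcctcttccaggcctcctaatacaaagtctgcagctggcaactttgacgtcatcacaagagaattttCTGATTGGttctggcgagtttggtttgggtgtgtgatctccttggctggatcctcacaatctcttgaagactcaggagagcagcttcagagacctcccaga
H2-Eb1 promoter: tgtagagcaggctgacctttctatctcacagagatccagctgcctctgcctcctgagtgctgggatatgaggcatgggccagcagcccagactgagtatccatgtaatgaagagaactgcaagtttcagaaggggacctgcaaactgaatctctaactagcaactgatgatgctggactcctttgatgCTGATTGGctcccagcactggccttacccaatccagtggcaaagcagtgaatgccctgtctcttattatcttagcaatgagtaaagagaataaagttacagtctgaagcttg
H2-Aa was at 6.28, 4.4 and 3.62 CPM against 14.3, 11.1, 16.9 and 13 CPM (-1.54, SE 0.29, adjusted p = 0.00142 by edgeR), and H2-Eb1 at 6.66, 5.67 and 6.11 CPM against 16.7, 12.4, 17.9 and 15 CPM (-1.33, SE 0.28). Cd74, the invariant chain, was at 38.2, 31.2 and 27.6 CPM against 86.3, 59.9, 87.2 and 72.1 CPM (-1.24, SE 0.25). In all of them the highest lactating value was below the lowest nulliparous one. By contrast none of 18 genes of MHC class I presentation was called by edgeR (median -0.15), with 6 lower at an unadjusted p under 0.05, none by DESeq2, 1 without NUL_227 and 4 by limma on log2(TPM + 1). B2m (0.09, SE 0.13) and H2-K1 (0.13, SE 0.12) were among the 4 with a positive difference, and the other 14 had a negative one. The difference between the class I and class II lists was not tested.

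Summed markers of dendritic and lymphoid cells were lower as well. Those of dendritic cells ran from 2.74 to 3.14 TPM against 4.23 to 5.10 TPM, those of B cells from 2.05 to 3.39 TPM against 4.55 to 8.19 TPM, and those of T cells from 2.34 to 4.38 TPM against 6.22 to 9.04 TPM. Markers of NK and innate lymphoid cells ran from 3.62 to 4.21 TPM against 7.14 to 11.8 TPM. The part of these cells in the class II result was not tested. All calls among the single genes were lower, against 6.00% of all genes tested that were called lower. They numbered 4 of 10 dendritic, 3 of 14 T cell, 4 of 11 NK and 3 of 11 B cell markers. These counts changed with single libraries, to 2 for dendritic cells without each of LAC_200, LAC_213, LAC_240 and NUL_226, to 1 for NK cells without LAC_240, and to 1 for B cells without each of LAC_213, LAC_240, NUL_221 and NUL_226. NK calls were 2 without LAC_213, NUL_220 or NUL_221 and in a fit of the 7 libraries alone, as were the dendritic calls in that fit, with an offset for effective length and on log2(TPM + 1). B cell calls were 1 with that offset and on either TPM scale, and T cell calls were 5 on log2(TPM + 0.1). Cd79b, of the B cell receptor, was at 0.362, 0.361 and 0.329 CPM against 0.962, 1.23, 1.89 and 0.851 CPM (-1.81, SE 0.41, adjusted p = 0.00437 by edgeR). Neutrophil markers overlapped in their sums (8.27 to 13.1 TPM against 10.9 to 24.6 TPM), as did plasma cell markers (32.1 to 59.2 TPM against 30.9 to 52.1 TPM).

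Of 23 chemokines and cytokines 10 fell and 1 rose (median -0.64). The 11 calls became 7 without LAC_200, 6 without LAC_213 and 6 without LAC_240. The riser was Ccl9, at 54.6, 52.1 and 47.4 CPM against 38.1, 28.1, 22.5 and 30.4 CPM (0.78, SE 0.14, adjusted p = 0.000747 by edgeR). Csf1, the growth factor of macrophages, was at 8, 8.1 and 9.95 CPM against 14.3, 11.6, 14 and 13.3 CPM (-0.61, SE 0.15), and Il18 fell by 0.58 on the log2 scale (SE 0.14). Of 36 interferon-stimulated genes 4 fell and none rose (median -0.33). That count was 1 without LAC_213, 1 without LAC_240, 2 without NUL_226, and 7 by DESeq2. Gbp2, a guanylate-binding protein, was at 4.43, 3.37 and 4.33 CPM against 12.5, 7.06, 7.72 and 7.95 CPM (-1.13, SE 0.27), with an adjusted p of 0.0551 without LAC_213. The part of the lower Kupffer, dendritic and lymphoid marker levels in these lists was not tested.

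**Figure D5:**
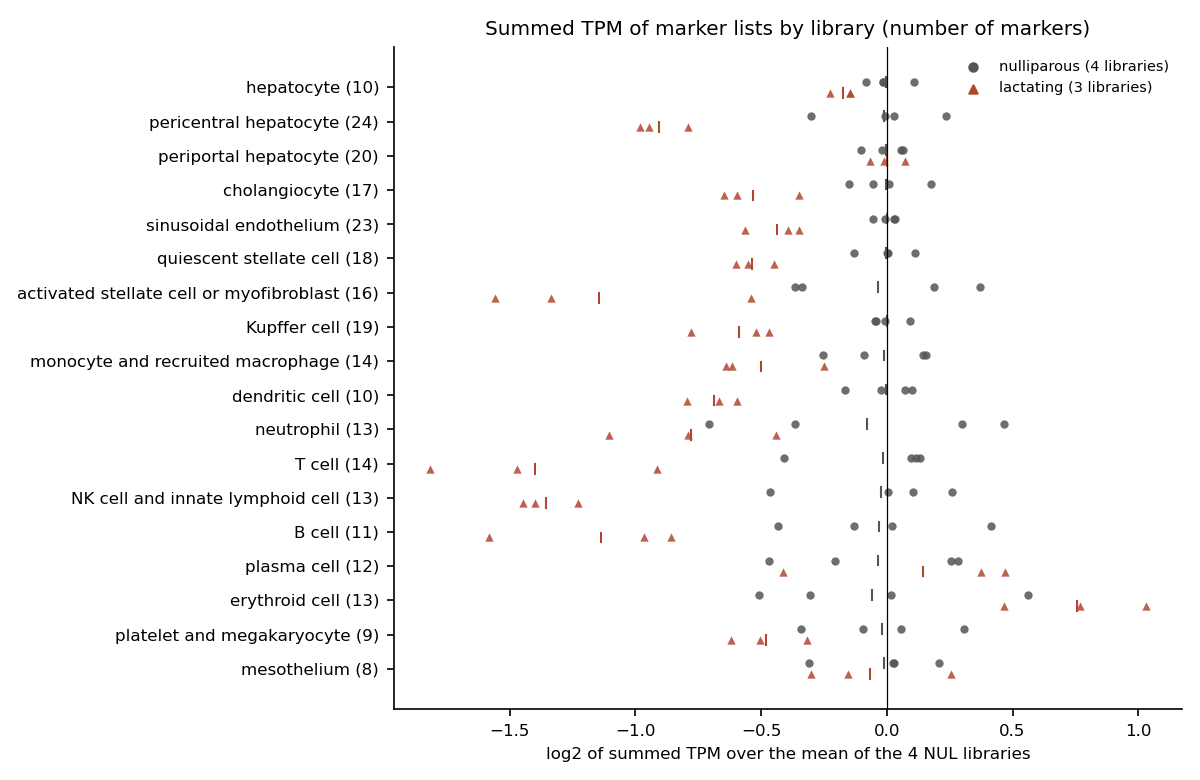
Summed TPM of each cell type marker list in each library, as log2 over the mean of the 4 nulliparous libraries (grey circles, nulliparous; red triangles, lactating; short bars, group means of the plotted values), with the number of markers in parentheses. Pericentral, endothelial, stellate, Kupffer, dendritic and lymphoid lists are lower in all 3 lactating libraries, the periportal list overlaps, and the erythroid list overlaps at higher lactating values.

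Markers of tissues next to the liver were low. Of 22 pancreatic acinar markers 9 had no count in any of the 7 libraries, and the summed level of 13.5 to 14.3 TPM against 27.3 to 35.8 TPM was mostly Cela1, which had a mean of 10.7 against 28.5 TPM. The defining Cpa1 was at 0 in all 7 libraries, and Prss2 in all but LAC_240, where it was at 0.0346 CPM. Globin and other erythroid transcripts were higher on average in lactation, with sums of 2255 to 3338 TPM against 1147 to 2410.1 TPM that overlapped, and Hba-a1 was not called (0.80, SE 0.46, adjusted p = 0.317 by edgeR).

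Several of the largest single differences belonged to genes outside the pathways above. Tmc5, a transmembrane channel-like gene, was at 14.8, 7.01 and 8.33 CPM against 0.136, 0.412, 0.382 and 0.578 CPM (4.74, SE 0.96, adjusted p = 0.00291 by edgeR). Dntt, terminal deoxynucleotidyl transferase, known from lymphocyte precursors, was at 12, 10.7 and 6.44 CPM against 0.461, 1.02, 0.398 and 0.532 CPM (4.01, SE 0.42, adjusted p = 2.00e-06 by edgeR). The gaps between groups were more than 6-fold for Dntt and more than 12-fold for Tmc5 in every pair of libraries. On the other side, Bin2, a BAR-domain protein of blood cells, was at 5.38, 4.92 and 3.29 CPM against 22.4, 23.7, 24.9 and 25.5 CPM (-2.41, SE 0.27, adjusted p = 1.05e-05 by edgeR), and Npnt, nephronectin of basement membranes, at 0.828, 0.756 and 0.485 CPM against 2.98, 7.82, 4.53 and 4.77 CPM (-2.86, SE 0.37). Spry4, a feedback inhibitor of receptor tyrosine kinases, fell from 9.24, 4.1, 13 and 8.36 CPM to 1.74, 1.96 and 2.82 CPM (-1.99, SE 0.47). Slc25a30, a mitochondrial carrier, rested on 1 nulliparous library, with 10.3, 12 and 6.11 CPM against 12.8, 21.1, 149.7 and 23.5 CPM, and without NUL_226 its adjusted p by edgeR was 0.314. It was also not called with sequencing runs as a covariate, in a fit of the 7 libraries alone, with no filter on low counts or by limma on either TPM scale. Among abundant secreted proteins, falls were also seen for Mug1, a murinoglobulin protease inhibitor with reads shared among copies (-1.10, SE 0.22), and Rnase4 (-0.81, SE 0.14).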

How the data were processed

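Liver RNA was sequenced after Trizol extraction and NEBNext Ultra RNA library preparation, per the labels' protocols. The deposited gene tables hold expected counts and TPM, which the authors made with STAR 2.6.1a and RSEM 1.3.1 on mm10 (GRCm38), per the submitters' processing notes. RSEM divides reads shared by near-identical genes, and whether strand was used is not given in the sources used here. Shared reads also entered the counts of Acaca, Ccna2 and Ccnd1 in all 7 libraries, and not every gene with shared reads is marked above. Expected counts were rounded and fitted with edgeR 4.0.16 in R 4.3.3 (TMM scaling, quasi-likelihood test), with all 27 libraries in 1 model sharing the estimate of spread. The 4 nulliparous and 3 lactating libraries gave the contrast, with Benjamini-Hochberg adjustment over all genes tested. A gene entered after edgeR's filter on low counts. limma 3.58.1 on log2(TPM + 1) and log2(TPM + 0.1), DESeq2 1.42.0 and fits without each library were alternatives. Named genes were the 8 rising and 8 falling calls with the largest TPM difference, the 12 rising and 12 falling non-overlapping calls with the largest log2 difference (mean log2 CPM of at least 1), and in each list up to 3 calls per direction with the smallest p, plus key members whatever their value. Members and lists were chosen with earlier results of these data known. A list is described by counts and medians, with no test of the list. The fit was checked on simulated counts. Promoters are RefSeq's, of GRCm38.p6. Some genes are not reported here.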

Additional observations from a re-analysis of the deposited data

Results flagged for a closer look

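With 4 nulliparous libraries, a gene was picked out here when its highest or lowest nulliparous library stood far from the other 3 by Dixon's criterion at the 95% level. Of 369 genes examined, 21 met it, and chance alone gives about 1 in 20. In NUL_221 the acute phase genes Saa1 (88.5 CPM) and Lcn2 (38.5 CPM), the fatty acid carrier Fabp2 (60.8 CPM) and the pancreatic Ctrb1 (0.0305 CPM) were highest, and Akr1c6 (559 CPM), Slc17a4 (46.7 CPM) and Cars (26.3 CPM) were lowest. In NUL_226 the mitochondrial carrier Slc25a30 (149.7 CPM), Socs2 (100.1 CPM), Ttr (8526 CPM) and Cdkn2c (5.04 CPM) were highest, and Slc25a1 (155 CPM), Rarres2 (272 CPM) and Bid (4.10 CPM) were lowest. NUL_220 had the highest level of the interferon-stimulated Gbp2 (12.5 CPM) and Gbp3 (29.4 CPM), of Npc2 (89.8 CPM) and of Pnpla3 (10.7 CPM). NUL_227 had the highest level of Hspa5 (1812 CPM) and Srxn1 (43.6 CPM) and the lowest of Xcr1 (0.289 CPM).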

How the results depend on the processing

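The number of genes called was 1837 in the reported fit and 822 at an adjusted p under 0.01. Leaving out each library in turn gave between 1140 (without LAC_213) and 1678 (without NUL_227). The share of calls higher in lactation was 46.4%, and 36.3% on log2(TPM + 1) and 32.0% on log2(TPM + 0.1). Taken across genes, log2 differences had a median of -0.009 in the reported fit. With these TPM scales it was lower, at -0.052 and -0.091 respectively. The cause was not tested. DESeq2 called 2148 genes, among them 1836 of the 1837, and no shared call was opposite in direction under any alternative. Of the 267 named genes that were called, 144 were called in every fit without 1 library and 136 in every alternative at the same threshold, leave-one-out fits included. No paired analysis was possible because the lactating and nulliparous libraries share no number. In a fit of the 7 libraries alone Sqle, Col3a1, Igfbp3 and Mttp were also not called. On both TPM scales Mttp and Gnmt were not called. With 3 lactating libraries, differences among low transcripts such as those of lymphocytes rest on few reads.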

Other observations

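Some gene groups fell outside the accounts above. Of 26 genes more abundant in female than in male liver 7 rose and 2 fell (median 0.09), and the 9 calls became 5 without LAC_213, while of 21 genes more abundant in males 4 rose and 2 fell (median -0.15). Cyp3a41a, a female-specific P450, was at 1377, 1544 and 792 CPM against 430.5, 486, 239.3 and 337 CPM (1.73, SE 0.26), and Cyp2b13, also female-specific, fell by 1.46 on the log2 scale (SE 0.27). Mup20, a urinary pheromone carrier of males, was at 42.6, 38.2 and 41.4 CPM against 18.1, 27.9, 22.9 and 22.6 CPM (0.83, SE 0.20). Cyp2r1, the 25-hydroxylase of vitamin D, stood apart between the groups, at 12.1, 10.6 and 11.8 CPM against 5.41, 5.75, 5.11 and 5.65 CPM (1.07, SE 0.19, adjusted p = 3.83e-04 by edgeR). Slc39a4, a zinc importer, rose by 0.77 (SE 0.15), and Hspa4l, a heat shock protein, by 0.94 (SE 0.16). Of 18 heat shock proteins 2 rose and 1 fell (median 0.45), with 1 call without LAC_213, 5 in a fit of the 7 libraries alone and 6 by DESeq2. Pdk1, a kinase that turns pyruvate dehydrogenase off, rose from 39.1, 42.5, 32.0 and 35.6 CPM to 66.8, 70.4 and 53.4 CPM (0.77, SE 0.16).

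Markers of monocytes and recruited macrophages had 5 of 14 lower and none higher (median -0.93), with 2 calls without each of LAC_200, LAC_213, NUL_221 and NUL_226, 3 without NUL_220, 1 with an offset for effective length, and 1 and 2 by limma on log2(TPM + 1) and log2(TPM + 0.1). Their summed levels overlapped, at 289 to 379 TPM against 378 to 502 TPM. Lyz2, lysozyme, was at 54.5, 56.5 and 40 CPM against 78.9, 72.7, 85.3 and 96.3 CPM (-0.73, SE 0.12). Of 14 cholangiocyte markers 3 fell, and 1 without any one of the 3 lactating libraries. Their summed level of 43.4 to 53.3 TPM against 61.3 to 76.8 TPM did not overlap, and Epcam was not called (-0.29, SE 0.30, adjusted p = 0.617 by edgeR). Tgfbi, a matrix protein induced by TGF-beta, was at 13.9, 14.9 and 13.8 CPM against 26.1, 25.8, 37.6 and 29.7 CPM (-1.07, SE 0.15). Of 26 genes of cell death 3 rose and 5 fell (median -0.21), and the 8 calls became 5 without LAC_213 and 5 without NUL_226. Casp6, an executioner caspase, fell by 0.66 on the log2 scale (SE 0.14), and Bid, a pro-apoptotic BCL2 family member, rose by 0.61 (SE 0.14).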
